A study of Mus musculus with 6 samples.

Results

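Astro3 is the smallest of the 3 astrocyte clusters in a single-cell survey of the mouse olfactory bulb. The study describes all 3 as Gfap-positive. For this report Astro3 was labelled as the astrocytes with the most Gfap. Its members were taken from the cluster assignment that the authors deposited for each cell. They numbered 336 of 5246 astrocytes and of 51426 annotated cells. The cluster names in that assignment differ from those in the study: all 38 clusters could be matched by their exact cell numbers in the 6 libraries, and the 336 cells of the study's Astro3 carry the name Astro2 in the deposited assignment. The study's names are used throughout, so that Astro1 stands for 3130 cells and Astro2 for 1780 cells. All mice were C57BL/6NJ, 14 weeks of age, and each library pooled the bulbs of 3 mice. Control mice had no olfactory manipulation per the labels, although one passage of the study describes the controls as the open side of occluded mice. Naris occluded mice had a nostril plugged on one side, and the study took the bulb of that side as the deprived sample. Olfactory trained mice were deprived of water and learned to tell odours apart for a water reward. Both manipulations lasted 6 weeks. The study states water deprivation for no other group, so its effects cannot be told apart from those of training. Each condition had 2 libraries, 1 of male mice (replicate 1) and 1 of female mice (replicate 2).

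Astrocytes are the glia that clear neurotransmitters from the space around synapses, buffer potassium and water, and share small molecules through gap junctions. Gfap codes for an intermediate filament protein that is abundant in the fibrous astrocytes of the brain's surface and white matter, and it increases when astrocytes react to injury. In the olfactory bulb, astrocytes lie beside olfactory ensheathing cells, which accompany the incoming sensory axons, and beside cells that arrive along the rostral migratory stream.

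The 336 cells came from every library, with 73 and 56 cells from control mice, 57 and 82 from occluded mice and 33 and 35 from trained mice. Their summed counts ranged from 62821 to 146323 unique molecular identifiers (UMIs, 1 for each captured transcript) per library, so the trained libraries gave the least precise values. The median Astro3 cell had 1859.5 UMIs, 1043 detected genes and 8.44% of its UMIs from mitochondrially encoded genes. The median Astro1 cell was as deep, with 1851.5 UMIs and 11.1% mitochondrial UMIs, whereas the median Astro2 cell had 708.5 UMIs and 23.6%. In all, 1461 barcodes occurred in more than 1 library. Of the Astro3 cells, 24 had a barcode that was also in another library, and no barcode belonged to an Astro3 cell in more than 1 library. Levels below are CPM, counts per 1000000 of the UMIs summed over the cluster's cells in a library, and a log2 ratio is the mean over the 6 libraries of log2(CPM + 10) in Astro3 minus that in the other cluster, ± its SD over the libraries. Because the clusters were defined on the same counts, differences between them are descriptions and were not tested.

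Gfap was high in Astro3 on average, but most of its counts lay in a few cells. Its level was 977 CPM and 1382 CPM in controls, 894 CPM and 439 CPM after occlusion, and 684 CPM and 1071 CPM after training. In Astro1 Gfap ranged from 206 to 359 CPM and in Astro2 from 306 to 658 CPM. Astro3 was above Astro1 in 6 of 6 libraries, by a log2 ratio of 1.74 ± 0.86, and above Astro2 in 5 of 6 libraries, by 1.06 ± 0.90, with naris occluded replicate 2 the exception. Over all libraries pooled, Astro3 ranked first of the 38 clusters with 898 CPM. However, 12 of the 336 cells held 5 or more Gfap UMIs each, and these 3.57% of the cells held 439 of the 587 Gfap UMIs, or 74.8%. The 12 cells were spread over all 6 libraries, with 1 to 3 in each.

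Without those cells Gfap in Astro3 was 245 CPM. This is below the 257 CPM of all Astro1 cells and the 394 CPM of all Astro2 cells. With their own 49 and 8 cells of 5 or more Gfap UMIs also left out, Astro1 was at 201 CPM and Astro2 at 324 CPM, on either side of Astro3. The cut was not scaled to depth, so the shallower Astro2 cells reached it less easily. By library the remaining Astro3 cells had 255 CPM and 285 CPM in the control libraries, 186 CPM and 337 CPM in the occluded libraries and 172 CPM and 144 CPM in the trained libraries. A Gfap UMI was found in 32.1% of Astro3 cells, 27.5% of Astro1 cells and 19.3% of Astro2 cells. When every cell was thinned at random to 500 UMIs, the shares were 9.82% (33 of 336 cells, exact 95% binomial interval 6.86 to 13.5%), 9.27% and 13.9%. The thinned share was 1.37% in the largest microglial cluster, which should lack Gfap and whose median cell had 1847 UMIs. The label therefore described the mean of the cluster and not its typical cell, and the cluster is called Astro3 below without reference to Gfap. Intervals cover counting error only.

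**Figure D1:**
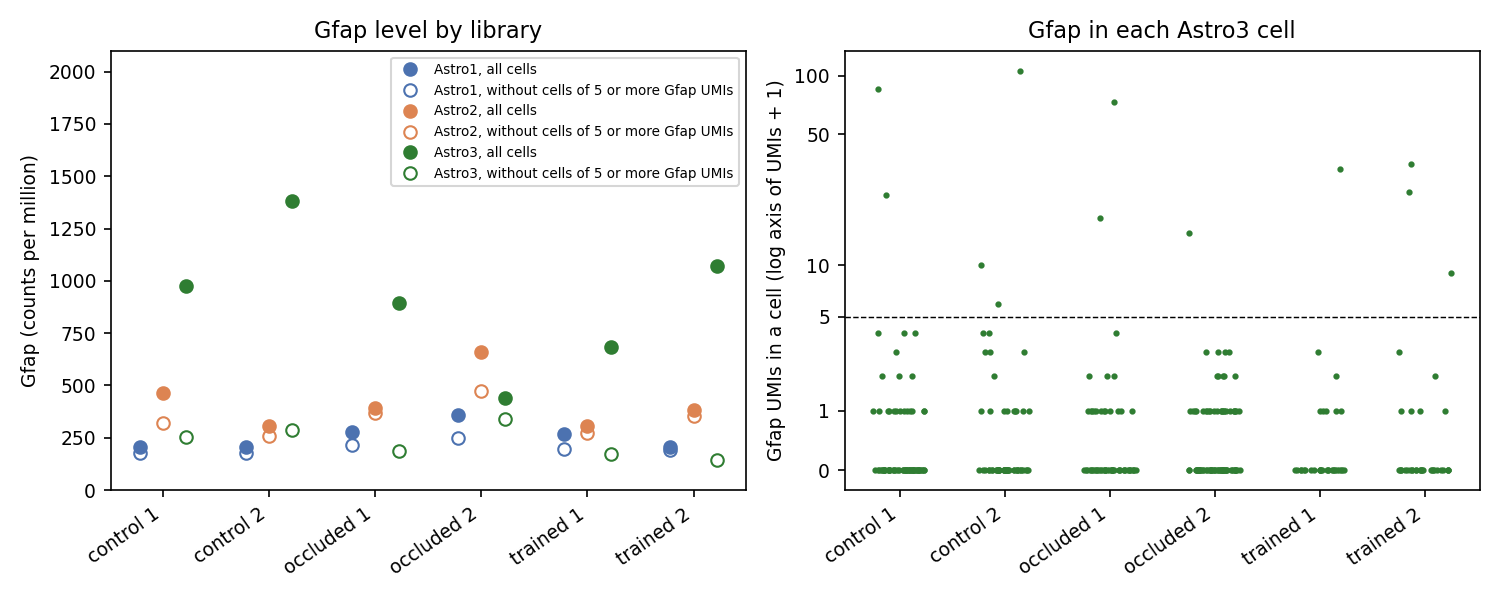
The left panel plots Gfap (CPM) by library in Astro1, Astro2 and Astro3, with filled points for all cells and open points after leaving out cells of 5 or more Gfap UMIs; the right panel plots the Gfap UMIs of each Astro3 cell on a log axis of UMIs + 1, with a dashed line at 5. The filled Astro3 points lie at 439 to 1382 CPM and the open ones at 144 to 337 CPM, and 12 cells lie above the line, the highest at 106 UMIs.

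The 12 Gfap-rich cells differed from the other 324 in more than Gfap. This comparison was made after their Gfap values were seen and is a description of pooled cells. The cut on Gfap UMIs was not scaled to depth, so it favoured deep cells. The 12 cells were deeper, with a median of 3903 UMIs against 1841, and had a median mitochondrial share of 14.2% against 8.40%. None of their barcodes occurred in another library. A UMI of 1500015O10Rik, the gene that most set Astro3 apart, was found in 11 of the 12 cells and in 198 of the other 324. Aqp4, the water channel of astrocyte endfeet, reached 1887 CPM in the 12 cells and 71.2 CPM in the others, with a UMI in 10 of 12 and 38 of 324 cells. Id3 and Id1, inhibitors of basic helix-loop-helix transcription factors, were at 2228 CPM against 94.4 CPM and at 903 CPM against 23.2 CPM. Fxyd6, a regulator of the sodium pump, was at 1284 CPM against 43.1 CPM, and Cryab, a small heat shock protein, at 803 CPM against 56.3 CPM. Fbxo2, a ubiquitin ligase subunit that binds glycoproteins, was at 2990 CPM against 492 CPM.

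Several abundant astrocyte transcripts were lower in the same 12 cells. Cst3, the protease inhibitor cystatin C, was at 6001 CPM against 31530 CPM, and the glutamate transporter gene Slc1a3 was at 622 CPM against 2733 CPM. The GABA transporter gene Slc6a11 was at 80.3 CPM against 535 CPM and the chondroitin sulphate proteoglycan gene Cspg5 at 40.1 CPM against 422 CPM. Fabp7, a fatty acid binding protein of radial glia, astrocytes and olfactory ensheathing cells, stood higher at 4636 CPM against 916 CPM. The 7 olfactory ensheathing cell markers, which include Fabp7, summed to 5559 CPM in the 12 cells and 1404 CPM in the others. Fabp7 made up most of both sums, and Npy, another of these markers, was at 261 CPM against 258 CPM. The 4 endothelial markers summed to 341 CPM against 108 CPM. The 12 astrocyte markers summed to 8169 CPM and 7638 CPM. The 15 genes most raised were picked among genes with 10 or more UMIs in the 12 cells, which favoured genes high there. Of these, 15 were also higher in the 49 Gfap-rich cells of Astro1 than in its other 3081 cells, some by little. Il17rb was at 4.85 CPM against 1.34 CPM in that split of Astro1, and Cryab at 155 CPM against 126 CPM. Of the 10 most lowered genes, 7 were also lower in the Gfap-rich cells of Astro1. One of those 10, Ttr, had UMIs in only 1 of the other 324 cells and describes that cell. Over all 7636 genes compared, 49.7% were higher in those Astro1 cells. Whether the 12 cells hold RNA of more than 1 cell was not tested.

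**Figure D2:**
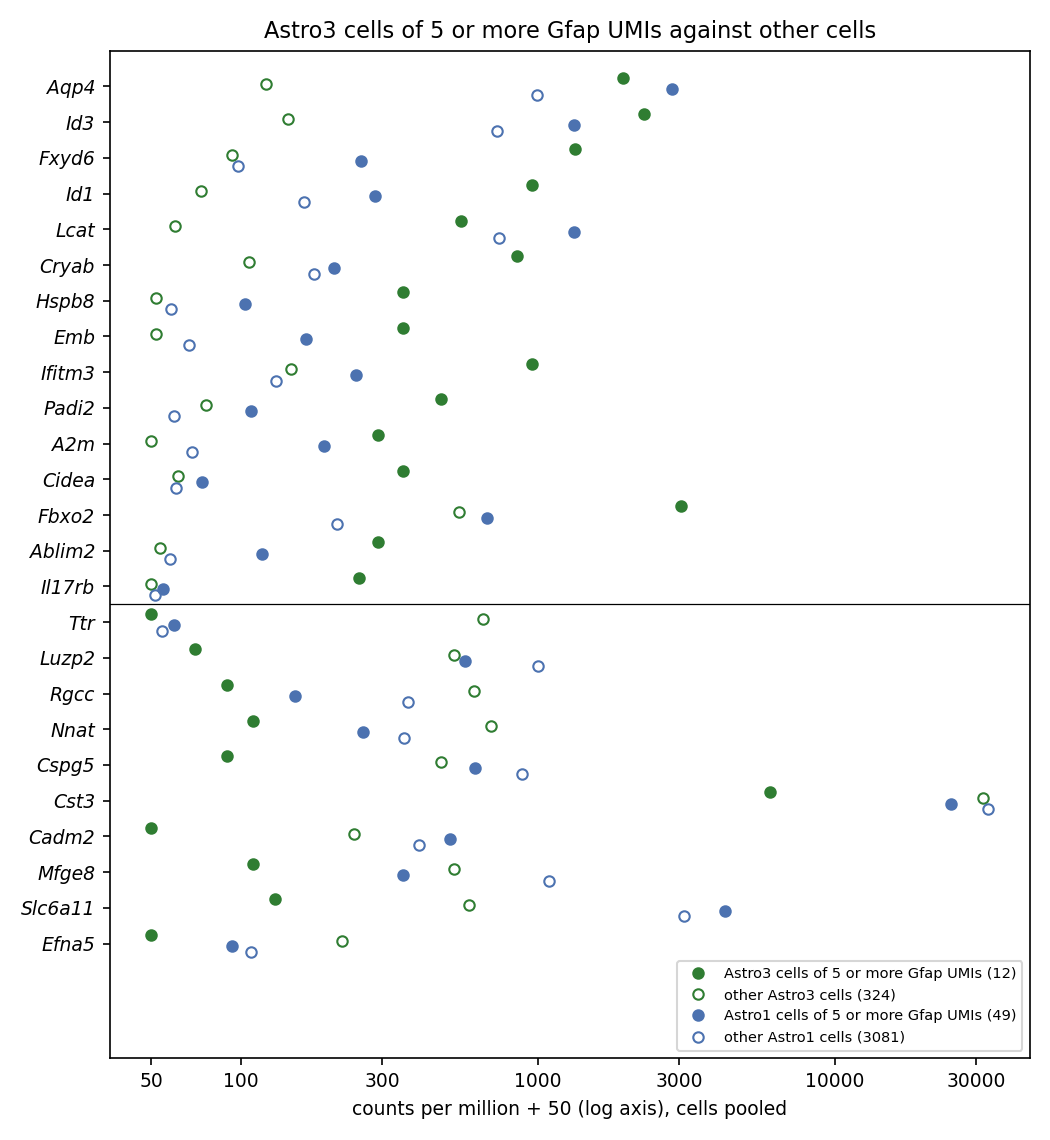
Levels (CPM + 50, log axis, cells pooled over libraries) of the 15 genes most raised and the 10 most lowered in the 12 Astro3 cells of 5 or more Gfap UMIs (filled green) against the other 324 Astro3 cells (open green), with the same split of Astro1 in blue. Aqp4 and Id3 stand at 1887 and 2228 CPM in the 12 cells and under 100 CPM in the other Astro3 cells, and the Ttr point of the other Astro3 cells comes from 1 cell.

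The gene that most set Astro3 apart was 1500015O10Rik, which codes for the precursor of the secreted peptide augurin. Its level was 601 to 973 CPM in the 6 Astro3 libraries, 3.0 to 7.7 CPM in Astro1 and 0 to 64.5 CPM in Astro2. The log2 ratio was 5.71 ± 0.33 to Astro1 and 4.71 ± 1.11 to Astro2. A UMI was found in 62.2% of Astro3 cells and, after thinning to 500 UMIs, in 28.9% of them against 0.224% in Astro1, 0.730% in Astro2 and 0.0885% in the microglial cluster. Only 1 of the other clusters, a mesenchymal one, had a higher pooled level. The gene was therefore present in most Astro3 cells and close to absent from the other astrocytes.

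Of 5395 genes with at least 20 UMIs over Astro3 and Astro1 in every library, 188 (3.48%) were higher in Astro3 in all 6 libraries by a mean log2 ratio of 1 or more, and 547 (10.1%) were lower. Against Astro2, 1518 genes reached the same minimum, of which 111 (7.31%) were higher and 99 (6.52%) lower. These counts depend on the processing. Against Astro1 they were 76 and 212 with a pseudocount of 50 CPM and 64 and 213 after thinning. With TMM factors, which assume that most genes do not differ, the counts were 79 and 804 against Astro1 and 53 and 181 against Astro2, and the median log2 ratio over all genes moved from -0.02 to -0.29 and from 0.16 to -0.22. Without mitochondrially encoded genes the counts against Astro2 were 72 and 138, with a median of -0.06. Among 6084 genes with at least 20 UMIs over the 3 clusters, 496 (8.15%) were higher and 280 (4.60%) lower than in both other clusters in all 6 libraries by any size, and 92 were higher and 156 lower by a mean of 1 or more against both. With no limit on size, 17.6% of the 5395 genes were higher and 17.8% lower than in Astro1 in all 6 libraries, and 25.8% and 15.4% of the 1518 against Astro2; the counts of gene lists below use this criterion and are to be read against these shares.

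After 1500015O10Rik, 14 other genes stood highest against both other clusters. Rnd3, a small GTPase that loosens actin stress fibres, ranged from 302 to 364 CPM in Astro3, with log2 ratios of 3.0 ± 0.19 to Astro1 and 3.09 ± 0.70 to Astro2. Sfrp1, a secreted Wnt antagonist, ranged from 198 to 384 CPM, with ratios of 2.74 ± 0.20 and 2.81 ± 0.90. Gadd45g, a growth arrest and DNA damage gene, ranged from 478 to 681 CPM, with ratios of 2.64 ± 0.24 and 2.57 ± 0.46. Each of these 3 genes had its highest pooled level of all 38 clusters in Astro3. Naaa, which breaks down lipid amides, Pdlim4, an actin-binding adaptor, and Ass1, an enzyme of arginine synthesis, also ranked first, with pooled levels of 415, 540 and 185 CPM. Riiad1, Hspa2, Enpp4, Tmem132b, Kcne1l, Mfap2, Atxn1 and Gm14964 complete the 15 highest, of which Mfap2 had under 20 UMIs in some library over Astro3 and either other cluster alone. Their mean log2 ratios lay between 1.96 (Gm14964 to Astro1) and 3.31 (Riiad1 to Astro1).

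Igfbp2, an insulin-like growth factor binding protein, marked the opposite end. It ranged from 6.83 to 31.8 CPM in Astro3, 1025 to 1811 CPM in Astro1 and 413 to 776 CPM in Astro2, so that no library of Astro3 came near the others. The log2 ratios were -5.69 ± 0.85 and -4.53 ± 0.69, and Astro3 ranked 37 of the 38 clusters. After thinning, 1.19% of Astro3 cells had an Igfbp2 UMI, against 0.929% of the microglial cells, which is at the background. Timp4, an inhibitor of matrix metalloproteinases, ranged from 0 to 18.4 CPM against 202 to 271 CPM in Astro1. The oligodendrocyte lineage factor Olig1 ranged from 0 to 63.7 CPM against 132 to 228 CPM in Astro1, and its relative Olig2 had no UMI in 336 cells, which allows a share of cells with a UMI of up to 0.893%, against a UMI in 13.9% of Astro1 cells. Btbd17, Car2, Tmem176a, Serpinf1, Lmo1, Hip1 and the potassium channel gene Kcnj16 complete the 10 lowest. The 10 lowest and the 15 highest genes were picked among genes of 1 sign in 6 of 6 libraries against both clusters. Hip1, Kcnj16, Olig1, Timp4 and Tmem176a had under 20 UMIs in some library over Astro3 and Astro2, as did Ass1 and Enpp4 of the highest.

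**Figure D3:**
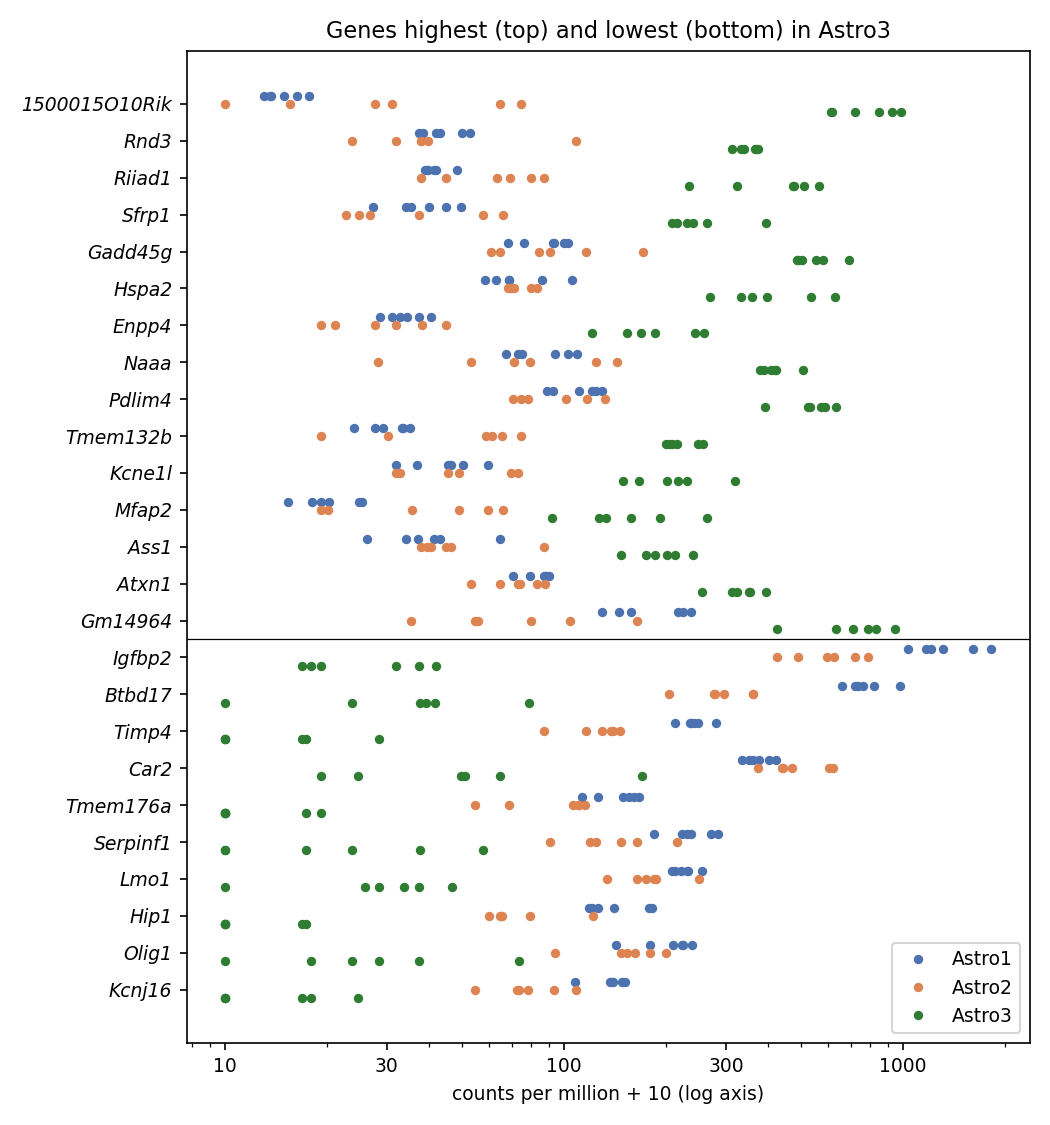
Levels (CPM + 10, log axis) of the 15 genes highest and the 10 genes lowest in Astro3 against both other astrocyte clusters, with 1 point for each library of each cluster. 1500015O10Rik lies at 601 to 973 CPM in Astro3 and Igfbp2 at 6.83 to 31.8 CPM, without overlap with Astro1 or Astro2.

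The genes by which astrocytes are usually recognized were lower in Astro3 than in Astro1. Of 18 astrocyte identity genes measured, 15 were lower in all 6 libraries and none was higher in all 6, with a median log2 ratio of -1.5 against -0.02 over all 5395 genes; 12 of the 18 were lower by 1 or more. Aqp4 ranged from 102 to 308 CPM in Astro3 and from 815 to 1151 CPM in Astro1, with a log2 ratio of -2.27 ± 0.66. Fgfr3, a fibroblast growth factor receptor, had a ratio of -3.03 ± 0.81, and Slc39a12, a zinc transporter, of -2.69 ± 0.47. Against Astro2 the list was also lower, with 9 of 15 measured genes lower and 3 higher in all 6 libraries and a median of -0.96. A UMI of Slc1a3 was found in 95.8% of Astro3, 97.0% of Astro1 and 35.7% of microglial cells, and after thinning in 72.6%, 78.9% and 12.1%. Even so, the 12 astrocyte markers summed to 6886 to 8344 CPM in Astro3, against 14555 to 16734 CPM in Astro1 and 1639 to 1837 CPM in cells other than astrocytes, and no marker was at 0.

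The functional gene groups of astrocytes followed this order. Of 17 amino acid and neurotransmitter uptake genes, 11 were lower and 2 higher than in Astro1 in all 6 libraries, with a median log2 ratio of -1.63. The GABA transporter Slc6a11 had a ratio of -2.56 ± 0.37, the glycine transporter Slc6a9 of -2.78 ± 0.36 and the neutral amino acid exchanger Slc7a10 of -3.77 ± 0.89. Of 16 ion, water and volume genes, 12 were lower and 2 higher, with a median of -1.57. The connexin genes Gja1 (-1.12 ± 0.19) and Gjb6 (-2.89 ± 0.32) were lower than in Astro1 in all 6 libraries, and the other 2 of 4 gap junction genes measured were not of 1 sign. Against Astro2, Gja1 was higher in 5 of 6 libraries, by 0.26 ± 0.30. This is within its SD and smaller than the shift between scalings, so Gja1 could not be called higher or lower than in Astro2.

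Secreted, lipid and glycolytic genes were mixed but more often lower than in Astro1. Of 20 genes for matrix and synapse-organizing proteins, 15 were lower and 3 higher in all 6 libraries, with a median of -1.22; Htra1, a secreted protease, had a ratio of -2.69 ± 0.32 and Chrdl1, a BMP antagonist that matures synapses, of -2.88 ± 0.73. Of 23 lipid and cholesterol genes, 12 were lower and 3 higher, with a median of -0.43. Lcat, which esterifies cholesterol, had a ratio of -3.73 ± 1.19, with 502 CPM in the 12 Gfap-rich cells and 9.94 CPM in the other 324, whereas Dbi, which binds acyl-CoA, had a ratio of 1.33 ± 0.10 and ranked first of 38 clusters with a pooled level of 10890 CPM. Of 16 receptor genes, 8 were lower and 2 higher, with a median of -0.67, and Ednrb, the endothelin B receptor, was among the higher ones at 0.61 ± 0.13. Against Astro2 these lists were mixed: 4 of 16 matrix genes were higher and 6 lower, as were 5 and 6 of 18 lipid genes and 2 and 2 of 9 receptor genes, with medians of 0.38, 0.39 and 0.19 beside 0.16 over all genes. Of 16 glycolytic genes, 7 were lower and 1 higher, with a median of -0.47; Aldoc had a ratio of -1.11 ± 0.33 and Eno1 of -1.52 ± 0.29. Of 18 nuclear genes of the respiratory chain, 1 was higher and none lower than in Astro1 in all 6 libraries, but 15 were lower than in Astro2, with medians of -0.09 and -0.59.

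Transcription factor and heat shock genes gave mixed counts, and 4 of 6 filament and cytoskeleton genes were higher. Of 16 transcription factors of glia and forebrain, 5 were higher and 3 lower than in Astro1 in all 6 libraries, with a median of 0.22 that is smaller than the shift between scalings, and against Astro2 all 9 measured were higher, with a median of 1.29. Zbtb20, a zinc finger repressor required for astrocyte formation, ranged from 1242 to 2018 CPM in Astro3 and from 542 to 694 CPM in Astro1, and its pooled level was the highest of all 38 clusters. Nfix, a nuclear factor I gene of glia, had ratios of 1.00 ± 0.32 and 1.39 ± 0.44, and Id4 of 1.17 ± 0.12 and 1.76 ± 0.23. Of 6 intermediate filament and cytoskeleton genes, 4 were higher than in Astro1, and the lower one was Aqp4, a water channel gene kept on that list. Apart from Gfap, Vim, the filament gene of immature glia, had ratios of 1.26 ± 0.52 and 1.42 ± 0.26. Of 8 heat shock genes, 5 were higher than in Astro1 in all 6 libraries (median 0.58) but none was higher than in Astro2 among 7 measured (median 0.12).

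Among neural stem cell genes, 3 were higher and 4 lower than in Astro1 of 8 measured, with a median of -0.71, and against Astro2 3 were higher and 1 lower of 4, with a median of 1.65. Cd9, a tetraspanin, ranged from 1120 to 1271 CPM against 272 to 395 CPM in Astro1, whereas Hopx and Lrig1, linked to quiescent stem cells, had ratios of -2.28 ± 0.52 and -2.52 ± 0.89. Notch2, a Notch receptor, was higher at 1.74 ± 0.63, and the Notch target Hes5 was lower at -1.80 ± 0.54; of 15 Notch, BMP and Id genes, 2 were higher and 6 lower. Mki67, Top2a and Cdk1, which mark dividing cells, had no UMI in Astro3. The 4 ependymal markers summed to 95.5 to 453 CPM in Astro3 and 46.0 to 70.7 CPM in Astro1. Of these, Dynlrb2, a light chain of dynein, ranged from 15.9 to 134 CPM (1 to 17 UMIs per library, so that it missed the minimum of 20 UMIs used for the counts) against 2.00 to 7.45 CPM in Astro1, with ratios of 2.23 ± 0.90 to Astro1 and 1.24 ± 1.02 to Astro2, and was higher in 6 of 6 libraries against both. Rarres2, a secreted chemoattractant precursor, had a ratio to Astro1 of 0.81 ± 0.77, which became -0.76 after thinning to 500 UMIs. The study's own list for the cluster is not independent of these cells. Of its first 20 genes, 13 were higher and 5 lower than in Astro1 in all 6 libraries, and 17 were higher than in Astro2; Plpp3 and Mlc1, among its first 10, had ratios to Astro1 of -0.37 ± 0.13 and -0.41 ± 0.26.

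Of 20 metallothionein and redox genes, 8 were higher and 1 lower than in Astro1 in all 6 libraries, with a median of 0.43, and against Astro2 4 were higher and 3 lower of 15, with a median of 0.12. Of 5 immediate early genes measured, 2 were higher and 2 lower: Btg2 had a ratio of 1.62 ± 0.52 and Dusp6 of -2.76 ± 0.80. Of 4 genes of purine metabolism outside the cell, 2 were higher and 2 lower, with Entpd2, which degrades ATP, at 1.34 ± 0.37. Only 5 of 36 genes of a reactive astrocyte panel reached 20 UMIs, of which 1 was higher and 1 lower, with a median of -0.45; against Astro2 only 2 did, and both were higher. As for other cell types, the olfactory ensheathing cell markers summed to 955 to 2337 CPM in Astro3 and 3086 to 4435 CPM in Astro1, and the oligodendrocyte precursor markers to 0 to 63.7 CPM against 202 to 341 CPM.

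Whether the abundance of Astro3 followed olfactory experience was asked of the cell numbers. Astro3 made up 0.730% and 0.726% of annotated cells in controls, 0.782% and 0.896% after occlusion and 0.312% and 0.522% after training. Of astrocytes, the shares were 7.14% and 7.07%, 7.55% and 8.76%, and 3.04% and 5.35%. Both trained libraries were the lowest on either scale, and the groups did not overlap. An exact permutation test of the astrocyte shares, two-sided, gave p = 0.33 for each pair of conditions, the smallest value that 2 against 2 libraries allow. The edgeR quasi-likelihood test over all 38 clusters gave log2 differences of 0.21 ± 0.33 (SE) for occluded against control (Benjamini-Hochberg adjusted p = 0.762; 1 of 38 clusters, or 2.63%, fell) and -0.84 ± 0.36 for trained against control (adjusted p = 0.336, edgeR). For trained against occluded the difference was -1.04 ± 0.35, a fall that passed the test (adjusted p = 0.0384, edgeR), as did 4 other clusters that fell (5 of 38, 13.2%) and 3 that rose (7.89%); 13 clusters (34.2%) had an unadjusted p under 0.05. This call was lost with DESeq2 (-0.91, adjusted p = 0.0980), with TMM factors (-0.90, adjusted p = 0.0918, edgeR), with the cluster Neuron16 left out of the totals (-0.97, adjusted p = 0.0731, edgeR) and with cells of 1000 UMIs or more (-0.80, adjusted p = 0.407, edgeR). It was also lost by edgeR without control replicate 1 (-1.04, adjusted p = 0.130), control replicate 2 (-1.04, adjusted p = 0.132), naris occluded replicate 2 (-0.94, adjusted p = 0.198) or olfactory trained replicate 1 (-0.69, adjusted p = 0.422). A share of captured cells also reflects how cells survive dissociation, whose part was not tested.

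**Figure D4:**
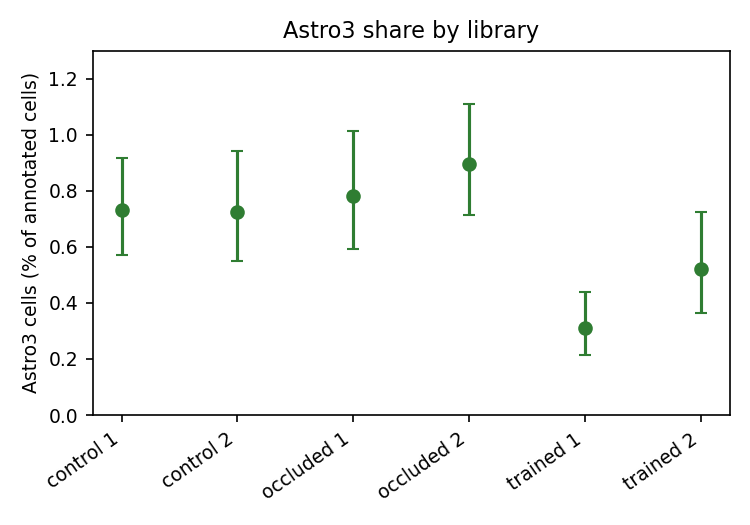
Astro3 cells as a percentage of all annotated cells in each library, with exact 95% binomial intervals that cover counting error only. The trained libraries lie at 0.312% and 0.522%, and the other 4 libraries between 0.726% and 0.896%.

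Between conditions, few genes of Astro3 passed the test. Among 2261 genes tested by edgeR on the summed counts, 1 fell in naris occluded mice (0.0442%) and none rose; 114 (5.04%) had an unadjusted p under 0.05, and DESeq2 called none. That gene was S100a5, a calcium-binding protein known from olfactory sensory neurons. It was at 765 CPM and 1004 CPM in the control libraries, 253 CPM and 102 CPM in the occluded libraries and 748 CPM and 453 CPM in the trained libraries, so both occluded libraries lay below all others. The log2 change was -2.35 ± 0.28 (edgeR, adjusted p = 3.12e-10; DESeq2, adjusted p = 0.0800). S100a5 was also the 1 gene that fell in Astro1 (0.0104% of genes; -1.76 ± 0.24, adjusted p = 0.00201) and in Astro2 (0.0304%; -1.56 ± 0.26, adjusted p = 0.00136) by edgeR, and the change was -1.75 in cells other than astrocytes. After thinning, a S100a5 UMI was found in 21.9% and 33.9% of Astro3 cells in controls, 7.02% and 7.32% after occlusion and 39.4% and 8.57% after training. In the microglial cluster, which should lack the gene, the shares were 25.9% and 23.6%, 10.2% and 5.18%, and 23% and 14.49%. The exact 95% intervals of both clusters overlapped in each of the 6 libraries, so the Astro3 shares could not be told from the background, and in either cluster the occluded libraries were the lowest. Ifitm3 and Igfbp5 did not pass with all libraries but did when certain single libraries were left out. Ifitm3, an interferon-induced membrane protein, was at 355 CPM and 147 CPM in controls and 23.7 CPM and 154 CPM after occlusion. It was at 191 CPM and 0 CPM after training, so that the groups overlapped. In the 12 Gfap-rich cells it was at 903 CPM, from 45 UMIs in 5 cells, against 97.7 CPM in the other 324 cells. Its value of -1.56 (edgeR, adjusted p = 0.0816) became -1.57 to -3.45 (edgeR) without control replicate 2, naris occluded replicate 2 or either trained library. Igfbp5 was at -1.20 (edgeR, adjusted p = 0.0816) and passed without control replicate 1 (-1.49, adjusted p = 0.0337, edgeR) or either trained library (adjusted p = 0.00871 and 0.00588, edgeR).

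Trained mice differed from controls in 3 genes, of which 2 rose (0.0885%) and 1 fell (0.0442%), with 148 genes (6.55%) at an unadjusted p under 0.05. Fabp7 was at 1579 CPM and 1741 CPM in the control libraries, 1020 CPM and 1046 CPM in the occluded libraries and 669 CPM and 686 CPM in the trained libraries. The 3 conditions did not overlap, although 1 cell held 49 of the 231 UMIs of control replicate 1 and another 78 of the 189 of control replicate 2. After thinning, 30.1% of Astro3 cells had a Fabp7 UMI, against 17.4% of the microglial cells, where the shares were 17.1% and 19.7% in controls, 22% and 21.5% after occlusion and 13% and 13.9% after training. The fall in trained mice was -1.29 ± 0.22 on the log2 scale (edgeR, adjusted p = 0.000116), and the occluded value of -0.72 ± 0.20 did not pass (edgeR, adjusted p = 0.176), although it did without olfactory trained replicate 1 (adjusted p = 0.0265) or replicate 2 (adjusted p = 0.0163), which share the estimate of the spread. In trained mice Fabp7 also fell in Astro1, by 0.59 on the log2 scale (adjusted p = 0.0267, edgeR; 0.052% of genes fell there), and the values were -0.39 in Astro2 and -0.20 in cells other than astrocytes, neither of which passed. The training effect in Astro3 minus that in Astro1 was -0.77 ± 0.21 (edgeR, adjusted p = 0.451). Summed olfactory ensheathing cell markers were 2257 to 2337 CPM in the control libraries of Astro3, 1400 to 1690 CPM in the occluded and 955 to 961 CPM in the trained libraries. Fabp7 is one of them and made up most of each sum, so the sums are no separate value beside it. Ngfr was at 0, and the part of these markers in the result was not tested.

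The genes that rose were the metallothioneins Mt1 and Mt2, which bind zinc and copper. Mt1 was at 7716 CPM and 8338 CPM in the control libraries, 9238 CPM and 11291 CPM in the occluded libraries and 11047 CPM and 13082 CPM in the trained libraries. Its rise in trained mice was 0.59 ± 0.11 on the log2 scale (edgeR, adjusted p = 0.00130), and the occluded and trained libraries overlapped. Mt2 was at 2672 CPM and 3040 CPM, 3425 CPM and 3703 CPM, and 4314 CPM and 4708 CPM in the same order, without overlap, and rose by 0.66 ± 0.15 in trained mice (edgeR, adjusted p = 0.0229). The trained against control values were 0.36 and 0.44 in Astro1, 0.43 and 0.67 in Astro2 and 0.29 and 0.30 in cells other than astrocytes for Mt1 and Mt2, none of which passed. The training effect in Astro3 minus that in Astro1 was 0.15 for either gene and did not pass (edgeR, adjusted p = 1.00 for both).

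The Mt1 and Mt2 calls were lost without single libraries, and all 3 calls in trained mice without the 12 Gfap-rich cells, there at values of about the same size. By edgeR, Mt1 lost its call without control replicate 1 (0.52, adjusted p = 0.268) and olfactory trained replicate 2 (0.42, adjusted p = 0.172), and with no filter on low counts (0.43, adjusted p = 0.291). Mt2 lost its call without control replicate 1 (0.55), control replicate 2 (0.72), naris occluded replicate 1 (0.64) or olfactory trained replicate 2 (0.56), with adjusted p between 0.0570 and 0.756 (edgeR), and with no filter on low counts (0.51, adjusted p = 0.456, edgeR). Without the cells of 5 or more Gfap UMIs, an alternative chosen after seeing the data, no gene passed in trained mice: the values were -1.09 for Fabp7, 0.57 for Mt1 and 0.73 for Mt2, each with an adjusted p of 0.0516 (edgeR), and 135 genes had an unadjusted p under 0.05.

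**Figure D5:**
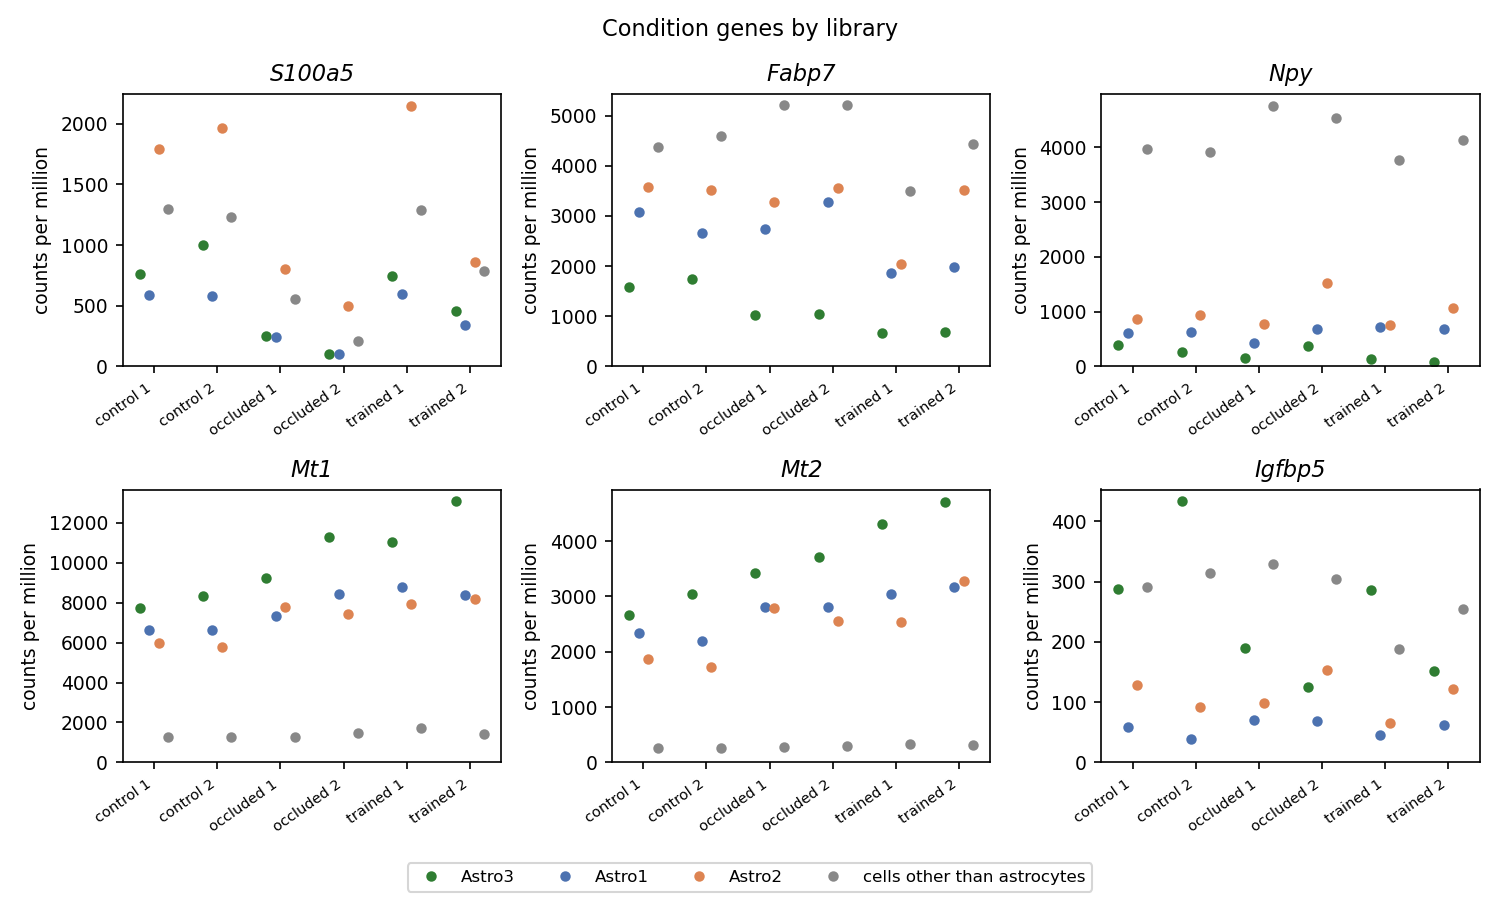
Levels (CPM, axes from 0) of S100a5, Fabp7, Npy, Mt1, Mt2 and Igfbp5 in each library, for Astro3, Astro1, Astro2 and cells other than astrocytes. S100a5 is lowest in the occluded libraries in all 4 sets of cells, and Fabp7 in Astro3 falls from 1579 and 1741 CPM in controls to 669 and 686 CPM in trained mice.

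Trained against occluded mice, 3 genes rose (0.133%) and none fell, with 163 genes (7.21%) at an unadjusted p under 0.05 and no call by DESeq2. They were S100a5 (1.79 ± 0.31, adjusted p = 0.000174) and the mitochondrially encoded mt-Co3 (0.43 ± 0.10, adjusted p = 0.0217) and mt-Co1 (0.44 ± 0.10, adjusted p = 0.0260), subunits of cytochrome oxidase, by edgeR. In Astro3 mt-Co3 was at 20591 CPM and 20905 CPM in controls, 16174 CPM and 16589 CPM after occlusion and 24848 CPM and 18175 CPM after training. In cells other than astrocytes it was at 24795 CPM and 23057 CPM, 20070 CPM and 19204 CPM, and 28783 CPM and 20655 CPM in the same order. Over all annotated cells, mitochondrial UMIs made up a median of 14.4% in olfactory trained replicate 1 and of 9.25% to 11.6% in the other libraries; its part in the result was not tested. Without naris occluded replicate 2 the S100a5 value was 1.26 (edgeR, adjusted p = 0.206) and without olfactory trained replicate 1 it was 1.39 (edgeR, adjusted p = 0.0879). The mt-Co3 call was lost without naris occluded replicate 1 (0.37) or olfactory trained replicate 1 (0.17), and that of mt-Co1 without any 1 library other than olfactory trained replicate 2 (0.26 to 0.45, adjusted p from 0.0668 to 0.697, edgeR). Both were also lost with cells of 1000 UMIs or more (0.41 for either), with no filter on low counts (0.26 and 0.28) and without the Gfap-rich cells (0.42 and 0.43). The replicate block ended both calls too (0.42 and 0.43), and library totals ended that of mt-Co1 (0.40, adjusted p = 0.0646, edgeR). Of the lists, 2 of 19 metallothionein and redox genes tested rose in trained against control mice, where 0.0885% of all genes rose, and Fabp7 was the 1 gene that fell among 5 stem cell genes and among 18 lipid genes. No astrocyte identity, uptake, ion and water, transcription factor, heat shock or glycolysis gene passed in any of the 3 comparisons. Only 8 to 13 genes of each list were tested, and too few genes passed to tell these lists from all genes. At an unadjusted p under 0.05 (edgeR), 4 of 13 ion and water genes were lower after occlusion and none higher, beside 59 of 2261 genes lower. In trained against occluded mice 3 of the 13 were higher and none lower, beside 83 of 2261 higher. Over all 2261 genes the median log2 changes were 0.00 for either manipulation against control.

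Whether a manipulation acted differently on Astro3 than on Astro1 was tested within libraries by an interaction term over 8400 genes. For occlusion 3 genes passed, all lower in Astro3 (0.0357%), and 323 (3.85%) had an unadjusted p under 0.05. Gfap fell relative to Astro1, with a difference of -1.47 ± 0.20 (edgeR, adjusted p = 5.92e-09): occlusion values were -0.86 in Astro3 (adjusted p = 0.147) and 0.61 in Astro1 (adjusted p = 0.446). In Astro3 alone Gfap passed without naris occluded replicate 1 (-1.43, adjusted p = 0.0268, edgeR) or without either trained library (adjusted p = 0.00791 and 0.00588, edgeR). Without naris occluded replicate 2, whose highest Astro3 cell had 15 Gfap UMIs where the control libraries had cells of 85 and 106, no gene passed and Gfap was at -0.89 (edgeR, adjusted p = 0.829). Without the cells of 5 or more Gfap UMIs, which were chosen by Gfap so that no test was made, Gfap in Astro3 was at 255 CPM and 285 CPM in controls and 186 CPM and 337 CPM after occlusion, which overlap. Igfbp5, an insulin-like growth factor binding protein, was at 287 CPM and 433 CPM in the control libraries of Astro3, 190 CPM and 124 CPM in the occluded libraries and 287 CPM and 151 CPM in the trained libraries. Its difference was -1.65 ± 0.34 (edgeR, adjusted p = 0.00549) and Fabp7's was -0.77 ± 0.18 (adjusted p = 0.0316, edgeR). By edgeR, Igfbp5 lost its call without control replicate 2 (-1.18, adjusted p = 1.00) or naris occluded replicate 2 (-1.45, adjusted p = 0.804), and Fabp7 without control replicate 2 (-0.66), naris occluded replicate 1 (-0.86) or naris occluded replicate 2 (-0.71) and with no filter on low counts (-0.74, adjusted p = 0.0592). When the Gfap-rich cells were left out, Igfbp5 was at -1.65 (edgeR, adjusted p = 0.0557) and Fabp7 at -0.46 (edgeR, adjusted p = 1.00), and DESeq2 called none of the 3 genes with all cells.

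For training 1 gene passed against Astro1 (0.0119%). Npy, neuropeptide Y, which olfactory ensheathing cells express strongly, was at 383 CPM and 267 CPM in the control libraries of Astro3, 150 CPM and 366 CPM in the occluded libraries and 143 CPM and 82.4 CPM in the trained libraries, from 6 to 56 UMIs each, and 1 cell of control replicate 1 held 25 of its 56. After thinning, 11.3% of Astro3 cells had an Npy UMI, against 10.8% of the microglial cells, which is at the background, and 67.0% of the largest ensheathing cluster. The trained libraries were the lowest, and in Astro1 the libraries ranged from 424 to 728 CPM. In Astro3 alone the trained against control value was -1.57 ± 0.39 (edgeR, adjusted p = 0.0535), which passed with RLE factors (adjusted p = 0.0449), library totals (0.0330) or no filter (0.0180), and without control replicate 2, olfactory trained replicate 1 or either occluded library (adjusted p from 0.0127 to 0.0405, edgeR). The difference was -1.82 ± 0.39 (edgeR, adjusted p = 0.0193), and it was not called by DESeq2 (adjusted p = 0.999). It lost its call without control replicate 1 (-1.51, adjusted p = 0.901), olfactory trained replicate 1 (-2.27, adjusted p = 0.0833) or olfactory trained replicate 2 (-1.57, adjusted p = 0.365), by edgeR. Against Astro2 no gene passed among 3177 for either manipulation, with 123 (3.87%) and 134 (4.22%) at an unadjusted p under 0.05 by edgeR and no call by DESeq2. Without naris occluded replicate 1, Gfap passed for occlusion (-2.08, adjusted p = 2.01e-05, edgeR), and Malat1, a nuclear long noncoding RNA, passed for training (0.95, adjusted p = 3.12e-11, edgeR), as it did without naris occluded replicate 2 (0.92, adjusted p = 5.95e-10, edgeR).

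The sex of the pools served as a check of the library labels. Among 1918 genes, 2 were higher in the female pools of Astro3 (0.104%) by edgeR: Xist and its antisense partner Tsix. At an unadjusted p under 0.05 there were 83 genes (4.33%). The Tsix call was lost without naris occluded replicate 1 (7.01) or replicate 2 (6.99). Whether Tsix UMIs came from Xist reads was not tested. Xist was at 0 in the 3 male libraries and at 2156, 2364 and 1949 CPM in the female control, occluded and trained libraries. Every Astro3 library matched the sex of its pool.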

How the data were processed

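Olfactory bulb cells of 6 libraries (2 per condition, 3 mice pooled in each) were captured with 10x Chromium and sequenced from the 3′ end. The deposited table holds raw UMI counts of 18560 genes in 52549 barcodes; per the labels' processing notes the authors used Cell Ranger 2.0.0, mm10 and Seurat 2.2.1. The study kept cells of at least 200 genes; 1123 barcodes without a cluster were not used, and no doublets were called here, since the authors had removed them. Libraries were taken from the deposited cell annotation, since the starts of the cell names are reversed for the trained libraries. The clusters were identified by their cell numbers (see the report's opening).

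Counts were summed over the cells of a cluster in each library, with Python 3.11.15 (pandas 2.3.3, numpy 2.4.6). Conditions were compared by edgeR 4.0.16 (R 4.3.3) with TMM factors, filtering by expression and the quasi-likelihood test, all 6 libraries sharing 1 estimate of the spread, with Benjamini-Hochberg adjustment over all genes tested and a threshold of 0.05. SEs were derived from the F statistic. The interaction model compared clusters within libraries. Cell numbers were tested over 38 clusters with library totals as offsets. Ratios between clusters used a pseudocount of 10 CPM. Counts of genes needed 20 UMIs in every library over both clusters compared, and the highest and lowest genes over the 3 clusters together. The tests were tried on simulated counts first. Alternatives were DESeq2 1.42.0, other scalings, filters and depth limits, omitted libraries and a replicate block.

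Depth was 62821 to 146323 UMIs per library in Astro3. The p-values measure the spread between pools of mice. In the tests of conditions the 2 pools of a condition differed in sex, and the main model held no term for sex.

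The named genes are Gfap, the 15 highest and 10 lowest against both clusters, the first 10 of the study's list, up to 4 members of each gene list with the largest ratio to Astro1 and up to 2 with the smallest p between conditions, and the genes that passed a test; the genes of the Gfap-rich cells and a few others (Ednrb, Gja1, Slc1a3, Dbi, Rarres2) were chosen after their values were seen. Members and gene lists were chosen with earlier results of these data known. Some genes of the lists are not reported here. No sequences are shown, since the results turn on expression levels.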

Additional observations from a re-analysis of the deposited data

Results flagged for a closer look

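By the edgeR interaction test, 4 genes passed for a manipulation effect in Astro3 that differed from that in Astro1. DESeq2 called none of the 4. For Gfap the occlusion effect in Astro3 minus that in Astro1 was -1.47 ± 0.20 (SE) on the log2 scale (adjusted p = 5.92e-09, edgeR). It was -1.65 ± 0.34 for Igfbp5 (adjusted p = 0.00549, edgeR) and -0.77 ± 0.18 for Fabp7 (adjusted p = 0.0316, edgeR). The training effect in Astro3 minus that in Astro1 was -1.82 ± 0.39 for Npy (adjusted p = 0.0193, edgeR). Without cells of 5 or more Gfap UMIs, Gfap in Astro3 was at 255 CPM and 285 CPM in controls and 186 CPM and 337 CPM after occlusion. Each of the 4 edgeR calls was lost when certain single libraries were left out. After thinning, the share of Astro3 cells with an Npy UMI was at the microglial background. The libraries and cells that the values rest on are given in the report.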

How the results depend on the processing

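Gene counts between conditions were small and moved with the processing. DESeq2 called 0 genes for occluded against control, 0 for trained against occluded and 0 for either effect against Astro1. For trained against control 6 genes passed with RLE factors, 6 with library totals, 5 with no filter and 0 without the Gfap-rich cells. For trained against occluded 1 passed with cells of 1000 UMIs or more, 1 without mitochondrially encoded genes and 1 without the Gfap-rich cells. With no filter 4 genes passed between sexes, 2 for the training effect against Astro1 and 1 against Astro2; without the Gfap-rich cells 0 passed for the occlusion effect against Astro1 and 2 for the training effect. Leaving out 1 library gave 2 to 7 genes for occluded against control, 4 to 11 for trained against control, 2 to 8 for trained against occluded, 1 to 4 between sexes, 0 to 5 and 1 to 3 for the occlusion and training effects against Astro1, and 0 to 4 for either against Astro2. Omitting a library also changed how many genes passed the filter.

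In the cell numbers, occluded against control turned to -0.044 with cells of 1000 UMIs or more; trained against occluded was -0.90 with TMM factors, -0.91 with DESeq2, -0.97 without Neuron16, where the call was lost, -0.80 with cells of 1000 UMIs or more and -0.69 to -1.43 without 1 library.

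Against Astro1, higher genes numbered 79 with TMM factors, 76 with a pseudocount of 50, 291 at 5 UMIs and 64 after thinning, and lower genes 212 with a pseudocount of 50 and 213 after thinning. Against Astro2, higher genes numbered 72 without mitochondrially encoded genes, 53 with TMM, 68 with a pseudocount of 50, 355 at 5 UMIs, 39 with cells of 1000 UMIs or more and 33 after thinning; lower genes numbered 181 with TMM, 245 at 5 UMIs and 35 with cells of 1000 UMIs or more. The log2 ratio of Rarres2 to Astro1 turned to -0.76 after thinning, and that of Ftl1 to Astro2 to -0.023 without mitochondrially encoded genes and -0.19 with TMM. Beyond the changes that fewer genes or cells bring, the cause was not tested.

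Replicates with the same number were of the same sex, but their deviations from the condition means correlated by 0.0970, 0.0732 and 0.0908 over 2261 genes, so the numbers were not taken to pair the libraries. With the replicate block 1 gene passed for trained against occluded in place of 3, with mt-Co3 (0.42, adjusted p = 0.0659, edgeR) and mt-Co1 (0.43, adjusted p = 0.0620, edgeR) no longer called, and the cell number difference was -1.05 (edgeR, adjusted p = 0.00962).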
